A study of Mus musculus with 12 samples.

Results

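Macrophages and microglia can express enzymes that turn common metabolites into signals, and activation switches on some of these enzymes, though not all. Acod1 (aconitate decarboxylase) makes itaconate from an intermediate of the citric acid cycle, Ch25h hydroxylates cholesterol to 25-hydroxycholesterol, Nos2 makes nitric oxide from arginine, Arg1 (arginase) splits arginine to ornithine and urea, and Ido1 opens the path from tryptophan to kynurenine. Ptgs1 and Ptgs2 (cyclooxygenases) convert arachidonic acid to prostaglandin H2, from which Ptges makes prostaglandin E2, while Alox5 with its activating protein Alox5ap starts the synthesis of leukotrienes. These 10 genes were described here, out of 20887 genes that could be named on the arrays. They were found as every probe whose RefSeq accession belongs to them, which gave 11 of 55681 probes, with a pair of probes for Ptges and a single probe for each of the others.

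The samples were neurospheres, aggregates of neural progenitor cells, grown from telencephalon cells of C57BL/6 embryos (day 13) and differentiated for 7 days. WT neurospheres carried no transgene. APP_WT neurospheres came from APPswe/PS1dE9 embryos (transgenes Mo/HuAPP695swe and PS1-dE9, driven in neurons of the central nervous system) and received no drug. BK_APP and HOE_APP were the same transgenic neurospheres given 1 µM of bradykinin (BK), the peptide agonist of the B2 kinin receptor, or 1 µM of HOE-140, a peptide analog of BK that blocks this receptor, on days 0, 3 and 6. On each 2-color Agilent array 100 ng of RNA of both conditions of a comparison was hybridized, with 4 arrays (replicates 1 to 4) for each of 3 comparisons, APP_WT versus WT and each treated condition versus APP_WT, and with dyes swapped between replicates 1 and 2 and replicates 3 and 4. The labels of both channels of the HOE_APP arrays name the same treatment, so the direction of that comparison is likely only. It was taken from the titles, the first channel's labels and the layout of the dye swaps. All HOE_APP values below, and the difference to BK_APP, carry this limit.

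The share of spots well above background was alike over the 12 arrays, at 45.2% to 60.1% in a channel. The correlations over expressed probes were not alike. Arrays with the same dye orientation correlated at r = 0.532 and 0.608 in APP_WT versus WT and at 0.245 to 0.426 in the comparisons with treated neurospheres. Arrays of opposite orientation correlated at 0.243 to 0.463 in APP_WT versus WT and at −0.323 to −0.114 in the comparisons with treated neurospheres. Over these probes the ratios of the treated comparisons thus went more with the dye orientation than with the treatment, which limits their values below. A probe entered the tests if at least 3 of the 4 arrays of any comparison measured it well above background for 1 of the conditions, which 29319 probes did. The App probe had a log2 fold change of 0.12 in APP_WT versus WT (adjusted p = 0.0924 by limma), and whether it reads the transgene was not tested. The 4 arrays of APP_WT versus WT lay on another slide than the other 8, so slide and comparison cannot be told apart.

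Of the 10 genes, 7 passed this filter with 8 probes (Acod1, Ch25h, Nos2, Ptgs1, Ptges, Alox5 and Alox5ap), and Arg1, Ido1 and Ptgs2 did not. Acod1, Ch25h and Ptgs1 were dim on every WT array, so they passed through the transgenic neurospheres alone. No count or median over the genes that passed is therefore evidence of its own. Their promoters are shown because these 3 genes had the highest ratios of the group. RefSeq promoters (GRCm38.p6) were found for 6 of the 10 genes, and the 250 bases before the start are printed 5′ to 3′ on the strand of the gene, with matches to the searched motifs in capitals. Acod1 lies on the plus strand (chr14:103046762-103047011), Ch25h on the minus strand (chr19:34475149-34475398) and Ptgs1 on the plus strand (chr2:36230176-36230425).
Acod1: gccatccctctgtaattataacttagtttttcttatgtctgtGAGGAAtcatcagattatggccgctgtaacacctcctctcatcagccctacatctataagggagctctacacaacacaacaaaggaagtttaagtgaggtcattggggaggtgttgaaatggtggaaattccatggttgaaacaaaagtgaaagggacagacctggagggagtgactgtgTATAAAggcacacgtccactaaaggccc
Ch25h: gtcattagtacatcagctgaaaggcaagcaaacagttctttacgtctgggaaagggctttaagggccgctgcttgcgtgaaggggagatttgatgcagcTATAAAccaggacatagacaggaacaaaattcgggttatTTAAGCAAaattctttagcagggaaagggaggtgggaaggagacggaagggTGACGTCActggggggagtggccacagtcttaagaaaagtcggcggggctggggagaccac
Ptgs1: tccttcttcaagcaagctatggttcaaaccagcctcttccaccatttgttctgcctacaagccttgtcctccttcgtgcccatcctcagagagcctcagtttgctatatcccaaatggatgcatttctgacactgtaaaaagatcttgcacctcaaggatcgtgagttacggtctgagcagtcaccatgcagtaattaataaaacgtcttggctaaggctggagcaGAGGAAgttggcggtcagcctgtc
The motifs searched on both strands were the core of PU.1, the transcription factor of the myeloid lineage (GAGGAA), the interferon-stimulated response element, AP-1 (TGANTCA), CRE (TGACGTCA), C/EBP (TTGCNNAA), the TATA box (TATAAA), the E-box (CACGTG) and the kappaB consensus. Acod1 held GAGGAA 208 to 203 bases before the start and a TATA box 28 to 23 bases before it. Ptgs1 held GAGGAA at 24 to 19 bases. Ch25h held a CRE at 61 to 54 bases, a C/EBP match on the opposite strand at 112 to 105 bases and TATAAA at 151 to 146 bases. Over all 32851 promoters of that length, 23.3% held GAGGAA, 12.4% the TATA box, 9.56% the C/EBP motif and 1.55% the CRE, and no 2 matches overlapped in these 3 promoters. The interferon element, kappaB, AP-1 and the E-box, held by 2.98%, 3.9%, 6.75% and 6.02% of promoters, had no match in any of the 6, which says only that these letters are not in these windows. GAGGAA was held by 5 of the 6 promoters, also by those of Ptgs2, Ptges and Alox5, and Ptgs2 held a C/EBP match too. Ptgs2 did not pass the filter, and Ptges and Alox5 did not pass the test in APP_WT versus WT below.

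The first comparison asked how transgenic neurospheres differ from WT neurospheres. Acod1 and Ch25h were the genes of this set with the highest ratios, Ptgs1 and Alox5ap rose by less, and Ptges, Nos2 and Alox5 did not pass the test. In all, 4 of the 7 genes were called higher and 0 lower at an adjusted p below 0.05 (limma, Benjamini-Hochberg over all expressed probes), against 11.6% of all expressed probes called higher and 7.02% called lower. With the replicate number as a block the count over all probes went from 5451 to 8266, and 5 genes of the set were called. At an unadjusted p below 0.05 there were 5 of the 7 genes, against 31.8% of all expressed probes. Over the 7 genes the median log2 fold change was 0.30, and over all named genes that passed the filter it was 0.01. The median of 0.30 leaves out Ptgs2, Arg1 and Ido1, which lay at 0.03, 0.02 and 0.12 without the filter. It is thus not evidence of a shift of the whole set.

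Acod1, the itaconate enzyme, had log2 ratios of 1.79, 2.14, 2.08 and 2.46 on arrays 1 to 4. All 4 arrays lay far above 0, with a log2 fold change of 2.12 ± 0.09 (SE, n = 4 arrays) and an adjusted p of 1.91e-07. The WT channel was not well above background on any array, so the difference is given as at least 4.35-fold higher in APP_WT, with mean log2 levels of 8.49 in APP_WT and 6.37 in WT. Acod1 is printed 10 times on each array, and these spots show the measurement directly. On array 1 the spots read 174 to 214 in the APP_WT channel and 58 to 72 in the WT channel. On array 4, with the dyes swapped, they read 707 to 811.5 and 51 to 65. No WT spot reached an APP_WT spot on any of the 4 arrays, and the log2 ratios of the spots of an array had an SD of 0.08 to 0.15.

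Ch25h, the oxysterol enzyme, has a single spot per array. Its log2 ratios were 1.07, 1.09, 0.90 and 1.48, all above 0, with a log2 fold change of 1.14 ± 0.09 (adjusted p = 1.63e-05). WT was again not well above background on any array, and APP_WT was at least 2.2-fold higher. The APP_WT spot read 128.5, 126, 202.5 and 327.5 on arrays 1 to 4, and the WT spot read 68.5, 59, 61 and 58.

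Of the cyclooxygenases, Ptgs1 and Ptgs2 gave different pictures. Ptgs1 had log2 ratios of 0.57, 0.36, 0.61 and 0.78 and a log2 fold change of 0.58 ± 0.07 (adjusted p = 0.000177). It was well above background on 3 of 4 APP_WT channels and on none of WT, which gives at least 1.43-fold. These signals were low, between 72.5 and 129 in APP_WT against 48 to 56.5 in WT. Ptgs2, the inducible cyclooxygenase, was as a probe not well above background in any condition on any array, although the array holds it 10 times. Its median spot signal was 41.25 to 54 in the green and 47.5 to 56.5 in the red channel. On array 1 of APP_WT versus WT single spots reached 1355.5 in the green and 3299 in the red channel, and 2 of the 10 spots of that array were left out as uneven or outlying. Without the filter Ptgs2 had a log2 fold change of 0.03 ± 0.05 (adjusted p = 0.824).

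**Figure D1:**
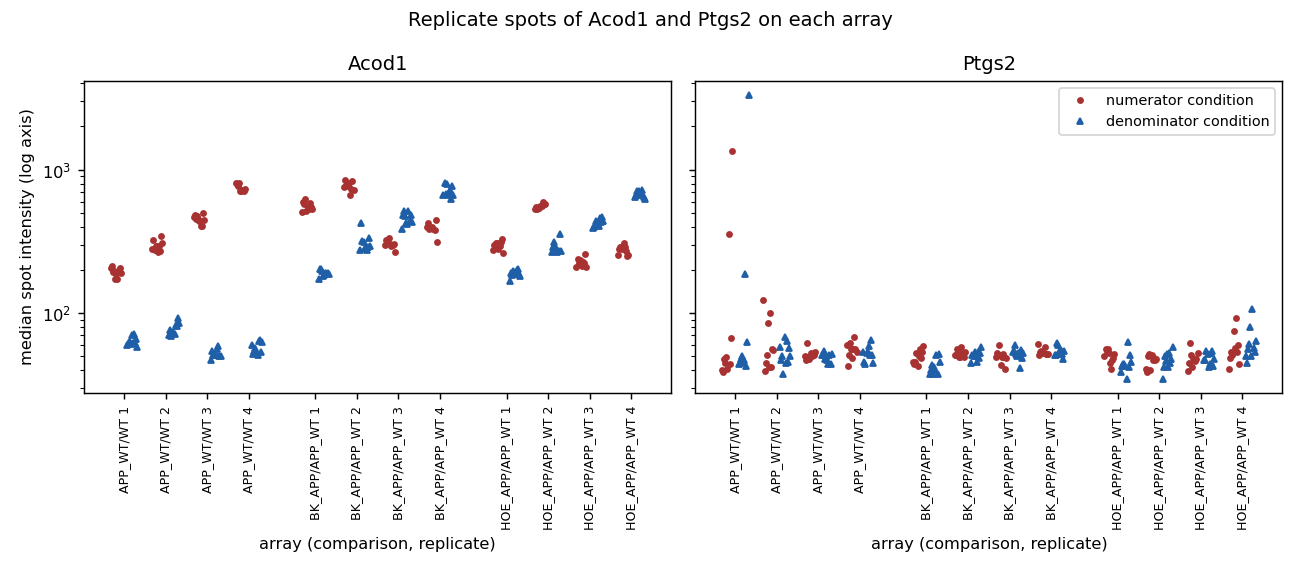
Median intensity (log axis) of the 10 spots of Acod1 (left) and of Ptgs2 (right) on each of the 12 arrays, with circles for the numerator condition and triangles for the denominator condition, flagged spots included. On the arrays of APP_WT versus WT the Acod1 spots of APP_WT and of WT do not overlap, while nearly all Ptgs2 spots lie at the same low level in every condition.

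Downstream of the cyclooxygenases, Ptges, the inducible synthase of prostaglandin E2, did not pass the test. Its bright probe, well above background in every channel, had log2 ratios of 0.18, 0.19, 0.29 and −0.01 and a log2 fold change of 0.16 ± 0.06 (adjusted p = 0.109). With the replicate block the same fold change had an adjusted p of 0.0144. The other probe of Ptges, well above background in 1 of 4 WT and 2 of 4 APP_WT channels, had a log2 fold change of 0.06 ± 0.08 (adjusted p = 0.693).

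In the leukotriene branch, Alox5ap had log2 ratios of 0.45, 0.39, 0.10 and 0.25 and a log2 fold change of 0.30 ± 0.07 (adjusted p = 0.0142), or 1.23-fold. All 4 arrays lay above 0, but the call did not hold without replicate 4 (0.26, adjusted p = 0.0842) or with the deposited log2 ratios (0.34, adjusted p = 0.122). Alox5, the lipoxygenase that Alox5ap serves, had log2 ratios of −0.04, −0.09, −0.25 and 0.02 and a log2 fold change of −0.09 ± 0.06 (adjusted p = 0.347). With the deposited log2 ratios it was −0.42 (adjusted p = 0.0234).

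Of the enzymes of arginine and tryptophan, Nos2 was well above background in all conditions, with log2 ratios of −0.13, 0.00, −0.27 and 0.06 and a log2 fold change of −0.09 ± 0.06 (adjusted p = 0.394). With the deposited log2 ratios it was −0.32 (adjusted p = 0.0471). Arg1 was well above background on 1 of the 12 arrays, in HOE_APP on array 4, where the spot read 75. Ido1 was well above background in APP_WT on array 2 of APP_WT versus WT alone, with a signal of 133 and a log2 ratio of 1.08, against −0.10, 0.02 and −0.51 on the other arrays. Without the filter the log2 fold changes were 0.02 ± 0.12 for Arg1 (adjusted p = 0.963) and 0.12 ± 0.16 for Ido1 (adjusted p = 0.741).

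**Figure D2:**
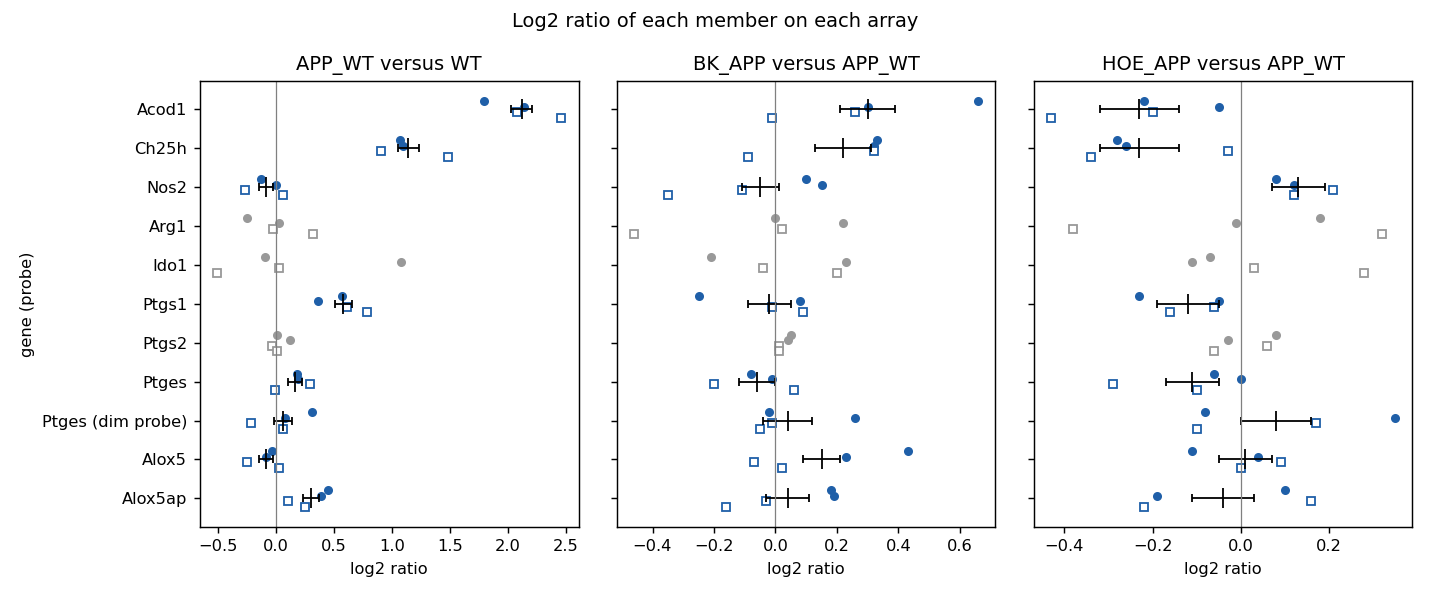
Log2 ratio of each gene on each array in the 3 comparisons, with filled circles for replicates 1 and 2, open squares for replicates 3 and 4 (dyes swapped), gray for probes that did not pass the filter, and bars for the log2 fold change ± SE. The axes differ between panels. In APP_WT versus WT all 4 values of Acod1, Ch25h, Ptgs1 and Alox5ap lie above 0, and in HOE_APP versus APP_WT all 4 values of Acod1, Ch25h and Ptgs1 lie below 0.

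The sizes of the ratios of the dim genes depended on how the background was treated, while their direction and call did not. With a normexp offset of 16 in place of 50 the log2 fold change was 2.74 for Acod1, 1.59 for Ch25h and 0.96 for Ptgs1. With the deposited log2 ratios it was 4.44, 2.93 and 2.36. The offset adds a constant to both channels before the ratio is formed, so the main values lie nearer to 0.

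Most expressed marker genes of microglia were higher in APP_WT, as were Acod1, Ch25h, Ptgs1 and Alox5ap, while Ptges, Nos2 and Alox5 were not called. Of 20 microglia markers 15 were expressed, and 12 of them were higher in APP_WT, among them Cx3cr1 (log2 fold change 2.31), Tyrobp (2.22), Aif1 (2.21) and C1qa (2.07). Only Sall1 was lower (−0.30), Itgam (0.11) and Siglech (0.05) did not pass the test, and the median was 1.16. The defining markers P2ry12, P2ry13, Spi1 and Gpr34 did not pass the filter, and Cd68 had no named probe. The summed level of the 15 genes was 23101 to 30510 in the 4 WT channels and 24691 to 44768 in the 12 APP_WT channels. The APP_WT channels are repeated measures of 4 replicates over the 3 comparisons, so the ranges are not of equal numbers. Of 14 markers of monocytes, macrophages and neutrophils 4 were expressed and 3 were higher, namely Adgre1 (2.04), Lyz2 (0.84) and Pf4 (0.83). Tyrobp, C1qa, Trem2, Tmem119, Ptprc and Pf4 were well above background on 1 of 4 WT arrays, Cx3cr1 and Fcrls on 2, and Adgre1 and Lyz2 on 0. These genes passed the filter through the transgenic neurospheres alone. Neither count of markers is thus evidence of its own, nor is the median of the microglia markers. A gene with several probes is given by its brightest expressed probe. Among other probes, Adgre1 had 1.17, Cx3cr1 had 1.04 and 2.23, and Csf1r, dim in WT, had at least 0.25. Mrc1, Cd163, Lyve1 and S100a9 were well above background on no array. The summed level of the 4 expressed markers of this list of monocytes, macrophages and neutrophils was 626 to 662 in WT and 919 to 1288 in APP_WT, over the same channels. Astrocyte markers were higher for 8 of 10 genes (median 0.30). Of neuron markers 4 were higher and 3 lower of 12, and of progenitor markers 3 were higher and 2 lower of 7. The labeled neural tissue thus had its markers. With median centering in place of loess 3 of the 8 astrocyte calls were kept (median 0.12), against 7 or 8 in the other settings. Without replicate 2, 3 of the 7 neuron and 3 of the 5 progenitor calls were kept. All 13 microglia calls were kept in both settings. Of the remaining markers, 1 of 5 endothelial genes was higher, 1 of 10 oligodendrocyte genes was higher and 1 lower, and 1 of 9 pericyte and fibroblast genes was higher and 3 lower. In such bulk RNA more cells of a type and more RNA per cell cannot be told apart, and the part of cell makeup in the values of the enzymes was not tested.

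The genes around the enzymes were described by lists for each pathway. Their counts of calls, and those of the markers above, stand against 11.6% of all expressed probes called higher and 7.02% called lower. The units differ: the lists count named genes, each by its brightest expressed probe, while the shares are over all expressed probes. The share over named genes is not given, so a list above these shares is not read as enriched. A list near these shares is not read as a result about its pathway. Of the oxysterol list, 15 of 19 genes were expressed, 5 rose and 1 fell (median 0.19, against 0.01 over all named genes). The cholesterol exporters Abcg1 and Abca1, both known targets of the liver X receptors that oxysterols activate, had log2 fold changes of 1.59 ± 0.07 (adjusted p = 2.97e-07) and 1.05 ± 0.07 (3e-06). The 24-hydroxycholesterol hydroxylase Cyp39a1 rose by 0.64 ± 0.09, the receptor Nr1h3 (liver X receptor alpha) by 0.56 ± 0.09 and Cyp7b1, which hydroxylates 25-hydroxycholesterol further, by 0.38 ± 0.05 (adjusted p = 0.000547). Osbp, an oxysterol-binding protein, fell by 0.16 (adjusted p = 0.049), a call that was lost without any one of the 4 replicates. Gpr183, the receptor for the dihydroxylated product, was well above background in 3 channels at most and did not pass the filter.

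Of the prostanoid list, 16 of 27 genes were expressed, and 6 rose and 0 fell (median 0.09). Pla2g5, a secreted phospholipase A2, had a log2 fold change of 1.33 ± 0.22 (adjusted p = 0.00203). The prostaglandin reductases Ptgr2 and Ptgr1 rose by 0.43 ± 0.05 and 0.30 ± 0.08, and the thromboxane synthase Tbxas1, dim on all WT arrays, by 0.38 ± 0.05 (at least 1.27-fold). Ptgds, the synthase of prostaglandin D2, rose by 0.29 ± 0.06, and the exporter Abcc4 by 0.23 ± 0.05. The phospholipase Pla2g4a, which releases arachidonic acid, had a log2 fold change of 0.05 ± 0.08 (adjusted p = 0.696). Of the receptors for prostaglandin E2, Ptger3 (0.11, adjusted p = 0.3) and Ptger1 (−0.05, adjusted p = 0.711) did not pass the test, and Ptger2 and Ptger4 did not pass the filter. Hpgds and Ptgis did not pass the filter either. Of the leukotriene list 8 of 20 genes were expressed and 0 were called. At an unadjusted p below 0.05 (limma) there were 2 of the 8, against 31.8% of all expressed probes. Ltc4s, which makes leukotriene C4, was at 0.10 ± 0.09 (adjusted p = 0.474) and Lta4h, which makes leukotriene B4, at 0.01 ± 0.06 (adjusted p = 0.89). With the replicate block 2 genes of this list were called higher, and without replicate 1 there was 1.

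Of the list for arginine and nitric oxide, 23 of 25 genes were expressed, 8 rose and 2 fell (median 0.09). Gch1 and its regulator Gchfr, of the synthesis of tetrahydrobiopterin, the cofactor of nitric oxide synthases, rose by 0.87 ± 0.08 (adjusted p = 3.24e-05) and 0.62 ± 0.07. Ass1, which recycles citrulline to arginine, rose by 0.76 ± 0.05 (adjusted p = 4.94e-06), and Oat, which uses ornithine, by 0.34 ± 0.05. Sms fell by 0.20 and Gucy1b1 by 0.16. Arg2, the mitochondrial arginase, was at −0.13 ± 0.06 (adjusted p = 0.163). Of the list for itaconate and the citric acid cycle, 22 of 22 genes were expressed, 5 rose and 2 fell (median 0.09). The stress factor Atf3 rose by 0.95 ± 0.07 (adjusted p = 6.73e-06), the mitochondrial isocitrate dehydrogenase Idh2 by 0.63 ± 0.06, Nfe2l2 (the factor Nrf2) by 0.50 ± 0.07 and Clybl, of itaconate breakdown, by 0.31 ± 0.09. The cytosolic Aco1 and Idh1 fell by 0.38 and 0.32. The subunits of succinate dehydrogenase, the enzyme that itaconate inhibits, lay between 0.01 (Sdhd) and 0.10 (Sdha), and none was called. Of the kynurenine list 10 of 20 genes were expressed, and Cyp1b1 (0.39 ± 0.08, adjusted p = 0.00706) and Slc3a2 (0.29 ± 0.06, adjusted p = 0.00479) rose. Kmo and Kynu, which act on kynurenine further along this path, did not pass the filter.

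The small changes in these lists depended on the scaling. When each array was centered on its median and loess was left out, 3 of the 6 prostanoid, 6 of the 10 arginine, 5 of the 7 itaconate, 1 of the 2 kynurenine and 5 of the 6 oxysterol calls were kept, and the medians of the arginine and itaconate lists turned to −0.04 and −0.08. No called gene changed its sign under any scaling tried. Over all probes the share of calls that were higher was 62.2% with loess, 36.1% with median centering and 33.3% with the deposited log2 ratios.

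**Figure D3:**
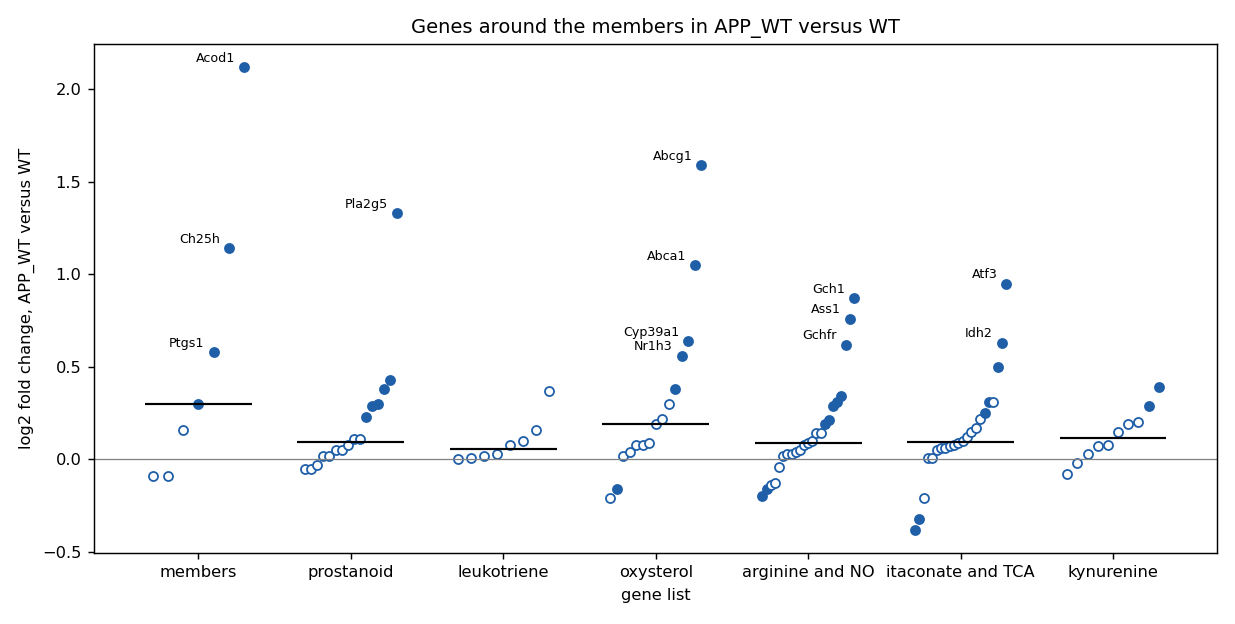
Log2 fold change of each expressed gene in APP_WT versus WT (y axis) for the enzymes and the lists around them (x axis), filled where the adjusted p was below 0.05, with a line at the median of each list and names for called genes beyond 0.5. Acod1, Abcg1, Pla2g5 and Ch25h lie highest, and 0 genes of the leukotriene list are filled.

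By a rule for likeness, the smallest root mean square difference of log2 ratios over the 12 arrays, the genes nearest to Acod1 were the chemokine Ccl3 (0.12), Gbp2 (0.17) and the macrophage marker Adgre1 (0.17). Those nearest to Ch25h were the adhesion molecule Vcam1 (0.11), Rac2 (0.13) and the cell cycle inhibitor Cdkn2b (0.14). In APP_WT versus WT, with BK and with HOE-140, in this order, Ccl3 had log2 fold changes of 2.26, 0.26 and −0.21, and Vcam1 had 1.16, 0.22 and −0.21. These are descriptions over arrays that share the RNA of APP_WT.

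The second comparison asked what BK changed in transgenic neurospheres. None of the 7 genes was called by limma, and neither was any other probe (0% of 29319 called, with 1306 probes, 4.45%, at an unadjusted p below 0.05). Acod1 and Ch25h had the highest values. Acod1 had log2 ratios of 0.66, 0.30, 0.26 and −0.01, which gave 0.30 ± 0.09 (95% interval 0.10 to 0.50, limma, adjusted p = 0.967). Array 4 lay at 0, and the others lay above it. Ch25h had 0.33, 0.32, 0.32 and −0.09, or 0.22 ± 0.09 (95% interval 0.01 to 0.43, adjusted p = 0.967). Arrays 1 to 3 were nearly equal and array 4 stood apart. Without replicate 4 the value was 0.33, and without replicate 3 it was 0.12. None of the 8 probes that passed had the same sign on all 4 BK_APP arrays, against 9.72% of all expressed probes.

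Alox5 had log2 ratios of 0.43, 0.23, −0.07 and 0.02, or 0.15 ± 0.06 (95% interval 0.02 to 0.28, adjusted p = 0.967). Its high values were those of replicates 1 and 2, which share a dye orientation. Ptgs1 (−0.02), the bright probe of Ptges (−0.06), the dim one (0.04), Nos2 (−0.05) and Alox5ap (0.04) lay within 0.06 of 0 with standard errors of 0.06 to 0.08. The methods' tests, SAM and rank products with both p-values at or below 0.05 and no adjustment, called Acod1 and Ch25h higher in BK_APP, beside 533 probes in all (1.83% of those tested).

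The third comparison asked the same of HOE-140. Again 0 genes of the set and 0 probes in all were called by limma (0%, with 1473 probes, 5.02%, at an unadjusted p below 0.05). Acod1 had log2 ratios of −0.22, −0.05, −0.20 and −0.43, or −0.23 ± 0.09 (95% interval −0.43 to −0.02, limma, adjusted p = 0.923). Ch25h had −0.28, −0.26, −0.03 and −0.34, or −0.23 ± 0.09 (95% interval −0.44 to −0.02, adjusted p = 0.923). Both genes lay below 0 on all 4 arrays, as did Ptgs1 (−0.23, −0.05, −0.06 and −0.16, mean −0.12, adjusted p = 0.923), and Nos2 lay above 0 on all 4 (0.08, 0.12, 0.21 and 0.12, mean 0.13, adjusted p = 0.923). Over all expressed probes 10.7% had the same sign on the 4 arrays. SAM and rank products called Acod1 and Ch25h lower in HOE_APP, beside 676 probes in all (2.31%). The bright probe of Ptges was at −0.11, the dim one at 0.08, Alox5 at 0.01 and Alox5ap at −0.04.

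With the replicate block 3 probes in all were called in HOE_APP versus APP_WT and 0 in BK_APP versus APP_WT, and no gene of the set was among the calls. Microglia markers had a median log2 ratio of 0.18, 0.13, 0.09 and 0.02 on the BK_APP arrays and of −0.16, −0.10, −0.02 and −0.08 on the HOE_APP arrays. None of the 15 was called in either comparison, and their part in the values of Acod1 and Ch25h was not tested. The summed level of these markers was 28381 to 42926 in BK_APP and 21886 to 30664 in HOE_APP (4 channels each). In the 12 APP_WT channels it was 24691 to 44768. Gch1 had a log2 fold change of 0.33 ± 0.08 with BK (adjusted p = 0.967) and 0.14 ± 0.08 with HOE-140 (adjusted p = 0.923). In the lists around the enzymes, 0 genes were called in either comparison, with medians from 0 to 0.02 for BK_APP and from −0.03 to 0.02 for HOE_APP.

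Both drugs were given at the same dose and days, so they were compared directly. BK_APP minus HOE_APP was 0.53 ± 0.13 for Acod1 (95% interval 0.24 to 0.81, limma, adjusted p = 1) and 0.45 ± 0.13 for Ch25h (0.16 to 0.74, limma, adjusted p = 1). No probe was called in this contrast (0%, with 2.49% of probes at an unadjusted p below 0.05), so neither difference passed the correction over all probes. Both comparisons are against APP_WT, and the standard errors and intervals given here take their arrays as independent, without the pairing by replicate number. By replicate number the difference was 0.89, 0.35, 0.45 and 0.42 for Acod1 and 0.61, 0.59, 0.35 and 0.25 for Ch25h, above 0 in 4 of 4 numbers for both, where 16.9% of all expressed probes had the same sign in the 4 numbers. For Nos2 the difference was −0.19 (−0.38 to 0.01), for Alox5 0.14 (−0.04 to 0.33), for Ptgs1 0.10 (−0.11 to 0.31), for Alox5ap 0.08 (−0.14 to 0.30) and for the bright probe of Ptges 0.05 (−0.15 to 0.25). These intervals include 0 and do not show that the drugs act alike. If the HOE_APP ratios are given the opposite sign, the difference was 0.08 for Acod1 and 0.00 for Ch25h. By number it was then 0.44, 0.25, 0.06 and −0.44 for Acod1 and 0.05, 0.06, 0.29 and −0.43 for Ch25h, so that 3 of 4 numbers lay above 0.

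The spots also show the APP_WT channel that the 3 comparisons share. Acod1 read 195.8, 191 and 190.5 in the APP_WT channel of replicate 1 on the WT, BK_APP and HOE_APP arrays, in this order, where this channel was Cy3. For replicate 2 it read 292, 291.8 and 272, for replicate 3, in Cy5, 455.5, 457 and 416, and for replicate 4 it read 726.5, 681 and 673. Ch25h read 128.5, 123 and 119 for replicate 1 and 327.5, 306 and 293.5 for replicate 4. For Acod1 the APP_WT signals of an equal number were thus closer to each other across comparisons than those of different numbers within a comparison, also for replicates 1 and 2, which share a dye. For Ch25h, with 126, 130 and 137.5 for replicate 2, this did not hold between replicates 1 and 2.

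For the levels (mean log2 intensity) the APP_WT channels of the same replicate number were averaged first, since the 12 channels are of 4 replicates. The level of Acod1 was 6.37 ± 0.20 in WT (SD, n = 4 in each condition, none well above background in WT), 8.58 ± 0.36 in APP_WT, 8.91 ± 0.18 in BK_APP and 8.41 ± 0.34 in HOE_APP. The last 3 overlapped in range, and WT, at 6.57 or lower, lay below all of them. Ch25h was at 6.37 ± 0.27 in WT, 7.60 ± 0.21 in APP_WT, 7.84 ± 0.07 in BK_APP and 7.45 ± 0.13 in HOE_APP. With the channels of the HOE_APP arrays exchanged, HOE_APP was at 8.64 and APP_WT at 8.50 for Acod1, and at 7.68 and 7.53 for Ch25h, so the order of these conditions turned and none is read from the levels. Ptgs1 was at 6.16 ± 0.08 in WT and at 6.75 to 6.85 in the transgenic conditions. Alox5ap was at 6.93 ± 0.18 in WT and 7.23 to 7.28 in the others, with overlapping ranges. Nos2 lay between 6.93 ± 0.24 (BK_APP) and 7.35 ± 0.11 (WT), Alox5 between 7.16 ± 0.10 (APP_WT) and 7.27 ± 0.19 (WT), and the bright probe of Ptges between 13.38 ± 0.09 (WT) and 13.57 ± 0.14 (APP_WT). Ptgs2 stayed within 6.06 and 6.26 in every channel.

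**Figure D4:**
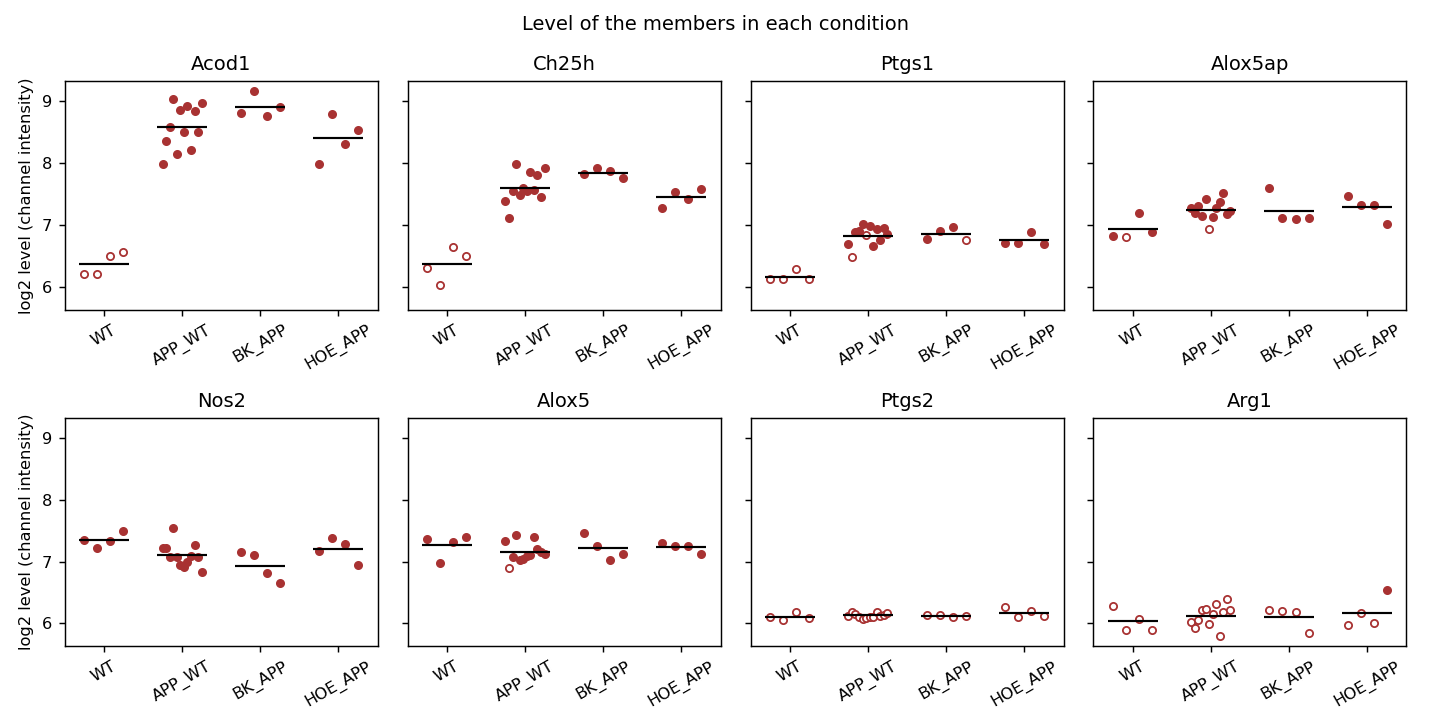
Level of 8 of the genes (log2 channel intensity, y axis) in WT, APP_WT, BK_APP and HOE_APP, with a point per channel, filled where it was well above background and open where it was not, and a line at the mean. Acod1, Ch25h and Ptgs1 have open points alone in WT. The direction of the HOE_APP channels is likely only.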

How the data were processed

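The authors deposited the scanner output of 12 arrays (Feature Extraction 11.0.1.1 in the file headers): median intensity and local background of each spot in Cy3 and Cy5, processed intensities, and a log10 ratio formed by the software. They also deposited a table of log2 ratios, which correlated at 0.9986 or more with the turned scanner ratios, so that its scale and sign were those used here.

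Intensities were corrected by normexp (offset 50) and loess (span 0.3) in limma 3.58.1 (R 4.3.3). Spots flagged as uneven or as population outliers and control spots were left out, spots of a probe were averaged, and ratios were turned to APP_WT over WT or treated over untreated. A limma model over the 12 arrays fitted for every comparison its mean ratio and a dye term (6 residual degrees of freedom). P-values were two-sided and adjusted over 29319 probes. Levels are per channel after Aquantile. A bound, "at least N-fold", sets the mean of the brighter condition against the higher of the dim signal and the lowest signal above background. Names came from a RefSeq table (27509 of 29150 probes with an accession).

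Replicates with the same number were treated as pairs in an alternative: their deviations, with dye removed and signed by APP_WT, correlated at 0.205 to 0.507 between comparisons. In the direction taken for HOE_APP, its deviations correlated at 0.421 to 0.432 with those of BK_APP. With those of APP_WT versus WT they correlated at 0.237 to 0.442. These values of HOE_APP would change sign if its channels were exchanged. The text names all 10 genes with every probe, listed pathway neighbors, of each list the called genes up to the 4 highest and 3 lowest, and for likeness the 3 nearest genes. Ptgds, Abcc4, the succinate dehydrogenase subunits and the markers were named after their values were seen. The genes and lists were chosen with earlier results of these data known. P-values measure the spread between neurosphere cultures. The number of arrays limits the precision. The code was tested on simulated data.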

Additional observations from a re-analysis of the deposited data

Results flagged for a closer look

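In a test of 33 groups of 4 arrays (11 probes in 3 comparisons), 2 had an array far from the other 3, where chance gives about 1 in 20. Ch25h in BK_APP versus APP_WT was at −0.09 on replicate 4, while the other arrays lay between 0.32 and 0.33. The dim probe of Ptges was at 0.26 on replicate 2 of BK_APP versus APP_WT, with the others between −0.05 and −0.01. It was well above background in 2 of the 4 BK_APP channels.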

How the results depend on the processing

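Of the values of single probes, 554 stayed the same. These were calls kept in their direction, or uncalled values that stayed uncalled and shifted by less than the SD of the arrays. Another 19 uncalled values shifted by more, 8 values passed the threshold anew, 4 no longer passed it and 0 calls reversed. The sign of uncalled values was not part of this count, and some crossed 0, such as Ptgs1 in BK_APP versus APP_WT (−0.10 to 0.03 over the other processing settings). Of the counts, 133 stayed within 1.5 times and 15 did not. Acod1, Ch25h and Ptgs1 were called in APP_WT versus WT in 17 of 17 settings and Alox5ap in 13.

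With each comparison fitted on its own 4 arrays, 1851 probes were called in APP_WT versus WT, with fewer residual degrees of freedom. With the replicate number as a block there were 8266 in APP_WT versus WT, 3 in HOE_APP versus APP_WT and 0 in BK_APP versus APP_WT. The block added the bright probe of Ptges (adjusted p = 0.0144) and changed no other call of the 10 genes. SAM and rank products, without adjustment, called 3527, 533 and 676 probes in APP_WT versus WT, BK_APP and HOE_APP, with 2 of the genes in BK_APP and 2 in HOE_APP. Without 1 replicate, 3779 to 5548 probes were called in APP_WT versus WT, 0 to 61 in BK_APP (61 without replicate 1), 0 to 9 in HOE_APP (9 without replicate 4) and 0 to 13 in BK_APP minus HOE_APP. The cause was not tested. The signals of the dim genes lie near background, which limits the precision of their folds.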
